A study of Mus musculus with 8 samples.

Results

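The collagen genes encode the alpha chains of the collagen proteins, and they were described here across the nucleus accumbens (NAc) and the medial prefrontal cortex (mPFC) of mice. The membership rule uses the name and the summed count: every symbol of the form Col, a number, a and a number was taken if its reads summed to at least 50 over the 8 libraries. Of 44 such symbols 43 were kept, out of 33885 symbols in the count tables. The one left out, Col10a1, had 0 counts in every library, and the lowest member, Col8a2, had 414 counts over the 8 libraries.

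Total RNA was sequenced from adult male C57Bl6J mice in 4 groups of 2 libraries. NAc was taken from mice that were given cocaine by intraperitoneal injection (7.5 mg/kg) and placed in a conditioning chamber for place preference and from mice left in the home cage, and mPFC from mice that had been defeated by aggressive CD1 males and from home-cage mice. Tissue of the exposed mice was collected 15 min after the experience. No group carried a genetic change. The labels do not say whether the libraries of a group are separate animals, so a p-value reflects the spread between these libraries and nothing wider. Libraries held 111901829 to 179479978 counts. Library numbers in NAc are those of the sample titles, and in mPFC they are only names.

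Collagen chains wind around each other into helices that are secreted and built into fibrils, sheets or beaded filaments outside the cell. In brain, type IV chains form the sheet of the basement membrane around blood vessels and under the pia, fibrillar chains are best known from the meninges and vessel walls, and several minor collagens are made by neurons or glia. Some collagens stay anchored in the cell membrane, and others sit on the surface of fibrils and have interrupted helices (FACIT collagens).

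Collagen reads were a small share of every library. They made up 0.0642% to 0.0668% of the counts in the 4 NAc libraries and 0.0506% to 0.0564% in the 4 mPFC libraries, and the regions did not overlap. Members ranged from 29 to 31404 counts in a library. In counts per 1000000 (CPM), scaled with TMM factors, the mean over the 8 libraries ran from 0.385 for Col8a2 to 99.4 for Col6a1, with a median of 4.48. There were 7 members under 1 CPM and 13 at 10 CPM or more. All 43 passed the filter on low counts in every comparison.

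For a ranking that allows for gene length, CPM per kilobase of annotated exons was averaged over the 8 libraries. Sums and shares of CPM elsewhere in the text do not allow for length. Col6a1, a chain of the beaded type VI filament, was highest at 22.7, followed by the basement membrane chains Col4a2 at 12 and Col4a1 at 7.55. Col25a1, a membrane collagen of neurons, followed at 6.16, then Col19a1, a FACIT-related collagen that interneurons make in mouse, at 5.76. Per kilobase of gene span, which would be the closer measure if reads in introns were counted, Col6a1 stayed first at 5.72 and Col4a2 second at 0.582, but Col25a1, whose gene spans 468.4 kb, was only 12th. Whether introns were counted is not given in the sources used here, so the order below Col4a2 depends on the length used. Col1a1, Col1a2 and Col3a1, the chains of the common fibrils of connective tissue, were at 0.615, 0.710 and 0.0978 CPM per kilobase of exons.

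Col4a1 and Col4a2, the chains that form the common network of the basement membrane, lie head to head on chromosome 8, with start sites 21 bases apart, so that their promoter windows share 78 bases. These windows, and those of Col6a1, the most abundant member, and Col5a1, one of the members furthest below its mPFC level in NAc, are shown because the levels of these genes carry much of what follows. Each runs from 250 bases before the start to 50 bases after it (RefSeq, GRCm38.p6), read on the gene's own strand. Capitals mark matches on either strand to a CCAAT box (CCAAT or ATTGG), a GC box (GGGCGG or CCGCCC) or a TATA box (TATAAA or TTTATA).
Col4a1 (chr8:11312777-11313076, minus strand): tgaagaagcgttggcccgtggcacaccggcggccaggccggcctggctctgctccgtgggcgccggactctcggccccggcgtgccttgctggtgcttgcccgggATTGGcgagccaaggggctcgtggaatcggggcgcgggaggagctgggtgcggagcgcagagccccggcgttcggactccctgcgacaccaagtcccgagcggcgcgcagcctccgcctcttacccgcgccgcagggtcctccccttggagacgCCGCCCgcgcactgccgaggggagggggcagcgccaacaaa
Col4a2 (chr8:11312555-11312854, plus strand): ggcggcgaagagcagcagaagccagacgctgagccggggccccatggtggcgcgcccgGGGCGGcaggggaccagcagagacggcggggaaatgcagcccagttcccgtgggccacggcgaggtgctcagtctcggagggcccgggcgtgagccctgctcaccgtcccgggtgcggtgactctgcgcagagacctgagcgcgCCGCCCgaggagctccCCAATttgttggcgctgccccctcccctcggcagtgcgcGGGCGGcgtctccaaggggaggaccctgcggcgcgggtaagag
Col6a1 (chr10:76725995-76726294, minus strand): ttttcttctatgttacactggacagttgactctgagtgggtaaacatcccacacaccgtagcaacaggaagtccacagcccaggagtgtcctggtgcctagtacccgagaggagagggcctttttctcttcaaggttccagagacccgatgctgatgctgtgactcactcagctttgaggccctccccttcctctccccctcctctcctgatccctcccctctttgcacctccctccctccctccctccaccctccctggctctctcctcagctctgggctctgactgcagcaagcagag
Col5a1 (chr2:27886175-27886474, plus strand): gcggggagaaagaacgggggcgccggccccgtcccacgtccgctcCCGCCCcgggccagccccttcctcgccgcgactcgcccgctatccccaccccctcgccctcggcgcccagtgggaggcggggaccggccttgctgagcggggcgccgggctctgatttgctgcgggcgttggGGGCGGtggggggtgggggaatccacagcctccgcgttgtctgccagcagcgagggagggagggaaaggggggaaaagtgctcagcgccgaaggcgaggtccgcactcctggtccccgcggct

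The Col4a1 and Col4a2 windows each held 1 CCAAT box, with 1 GC box at Col4a1 and 3 at Col4a2, and neither held the TATA letters. The GC box at Col4a1 lies in the 78 shared bases and is the same site as 1 of those at Col4a2, so it is counted for both genes. Col5a1 had 2 GC boxes, and the Col6a1 window held none of these letters. A window was on hand for 34 of the 43 members. GC boxes were in 22 of these (64.7%), against 35.9% of 27025 mouse promoter windows of the same length. CCAAT boxes were in 12 of 34 (35.3%), against 37.9% of all windows, and TATA boxes in 4 (11.8%), against 14.2%. Motifs can overlap in a window, and a match describes letters, not a bound site.

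**Figure D1:**
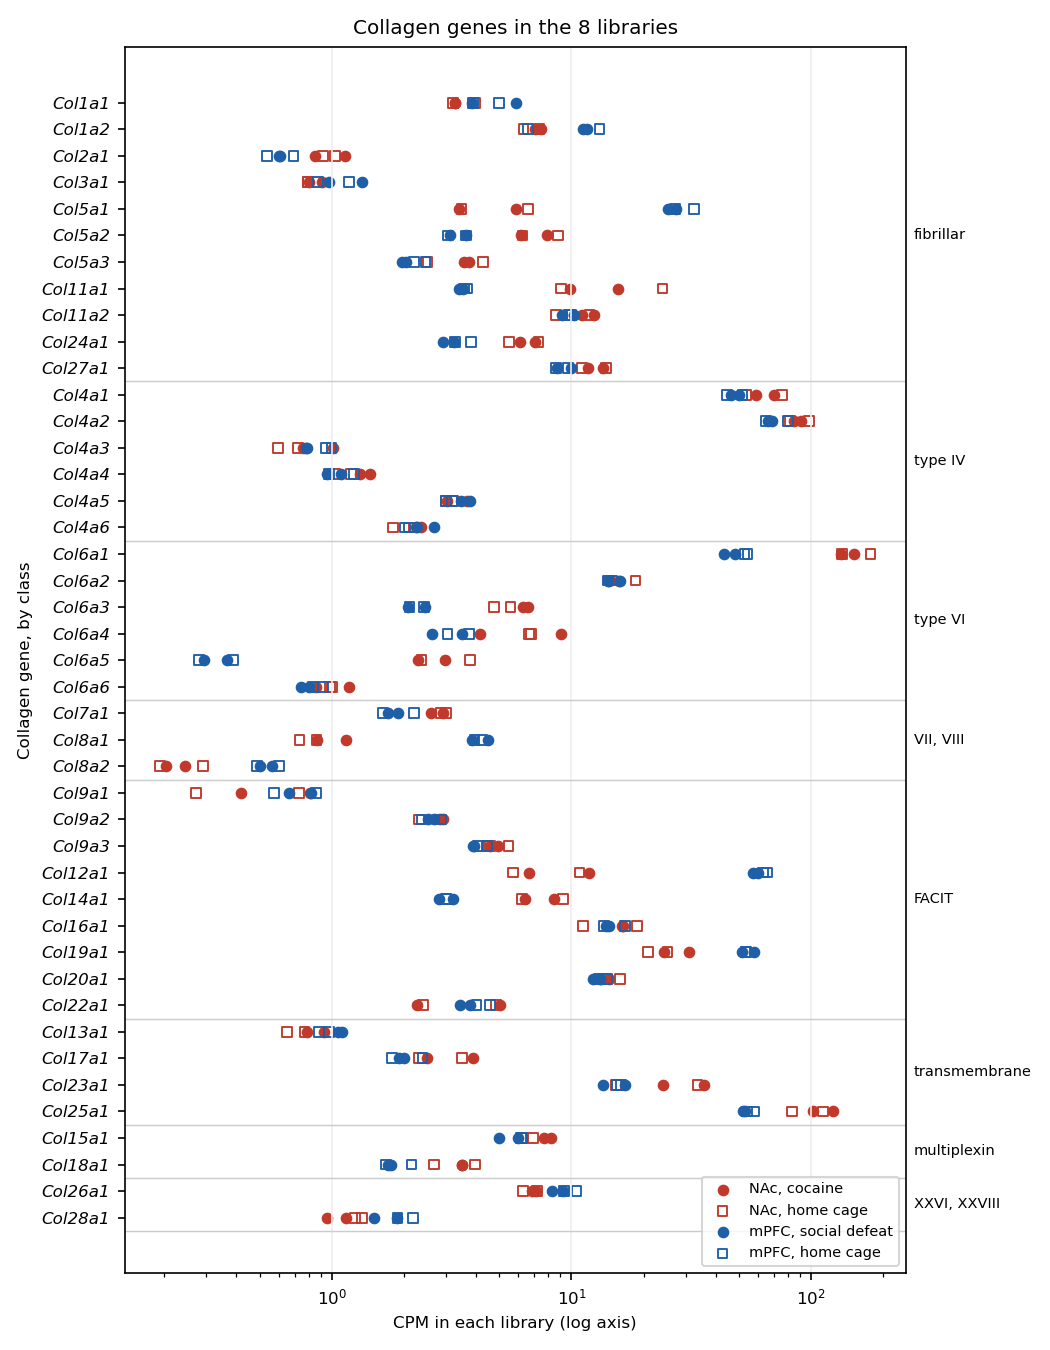
CPM (log axis) of the 43 collagen genes in each of the 8 libraries, grouped by structural class, with NAc in red, mPFC in blue, home cage as open squares and exposed mice as filled circles. Col12a1, Col5a1, Col8a1 and Col19a1 lie far to the right in mPFC, while Col6a5, Col6a1, Col11a1, Col14a1 and Col25a1 lie to the right in NAc.

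The strongest differences among collagen genes were between the regions. In home-cage mice, 12 of 43 (27.9%) differed between NAc and mPFC at an edgeR adjusted p under 0.05, with 8 higher and 4 lower in NAc. Over all 18300 genes tested, 12.4% were called, 7.01% higher and 5.35% lower. The median log2 fold change of the 43 was 0.11, against 0.007 over all genes. The count rested on single libraries. It rose without either NAc home-cage library, and no gene of the whole table was called without either mPFC home-cage library. Shares of all genes are not given here for the fits in which the count rose, so the rise is not a result about collagen genes. In bulk tissue, fewer cells of a type and less RNA per cell cannot be told apart, and neither can region and any difference in handling between the libraries of the regions.

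In the exposed mice, NAc after cocaine against mPFC after social defeat, 24 of 43 (55.8%) were called, 17 higher and 7 lower in NAc, against 36.3% of 18362 genes (19.2% higher and 17.1% lower). Experience and region cannot be told apart in this comparison, but it uses none of the home-cage libraries. Of the 12 home-cage calls 11 were called again with the same sign, which is 91.7% of the first list and 45.8% of the second. Col6a4 was the exception, at an edgeR adjusted p of 0.0646. The sign was shared by 39 of 43 members, and the log2 fold changes of the comparisons had a Pearson r of 0.982 across the 43 genes, which are not independent replicates. The same figures over all genes are not given here, so this repetition does not single out collagen genes. The count fell without either social defeat library. Shares of all genes are not given here for the fits with a library left out. Col5a1, Col6a1, Col6a3, Col6a5, Col8a1, Col12a1, Col19a1 and Col25a1, 8 of the 24, were called whichever of the 4 libraries was left out.

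Over all 8 libraries, 17 members had every NAc value above every mPFC value, and 24.5% of genes did so. For 7 members every NAc value was below, as for 23.3% of genes.

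The striatal content of the NAc libraries was itself uneven. Markers of striatal projection neurons, 12 of 12 detected, summed to 6470 to 7350 CPM in the NAc libraries numbered 1, 2470 to 2800 CPM in those numbered 2, and 990 to 1120 CPM in mPFC. Cortical glutamatergic markers, also 12 of 12 detected, summed to 1330 to 1430 CPM, 1760 to 1860 CPM and 2620 to 2790 CPM in the same order. Astrocyte markers were at 2540 to 2780 CPM in NAc and 3750 to 4010 CPM in mPFC, and OPC (oligodendrocyte precursor) markers at 375 to 431 and 176 to 189 CPM, with 1 of 6 at 0. The sums of these glial markers thus separated the regions too, astrocyte sums lower and OPC sums higher in NAc. Single markers did not all do so. In home-cage mice 3 of 8 astrocyte markers were called lower in NAc, and 3 of 5 OPC markers tested were called higher. Most of the OPC sum was Lhfpl3, at 224 to 279 CPM in NAc and 69.4 to 82.1 CPM in mPFC. Pdgfra and Cspg4 overlapped between the regions. Choroid plexus and ependyma markers, 8 of 8 detected and 5 tested, summed to 10.8 to 27.4 and 4.95 to 6.85 CPM. Much of the NAc sum was Clic6 and Kl, which were higher in number 1 than in number 2. Ttr overlapped between the regions, at 0.459 to 4.13 and 0.282 to 1.26 CPM, and Foxj1 did not, at 3.55 to 3.96 and 2.41 to 3.13 CPM. Among vessel cells, mural markers were at 101 to 104 and 118 to 124 CPM, and endothelial markers overlapped at 140 to 168 and 147 to 179 CPM. Single mural markers went both ways. Rgs5 was lower in NAc, at 34.2 to 36.7 against 48.8 to 53.9 CPM, and Pdgfrb was higher, at 27.1 to 30.0 against 24.4 to 26.8 CPM. In home-cage mice 5 of 10 mural markers had positive log2 fold changes, and 1 was called, lower in NAc. Oligodendrocyte markers, 8 of 8 called higher in NAc in exposed mice, were at 2560 and 2270 CPM after cocaine and 1130 and 1240 CPM after defeat, and overlapped in home-cage mice, at 1370 to 2400 and 1260 to 1510 CPM. The part of these cell types in the regional results was not tested.

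**Figure D2:**
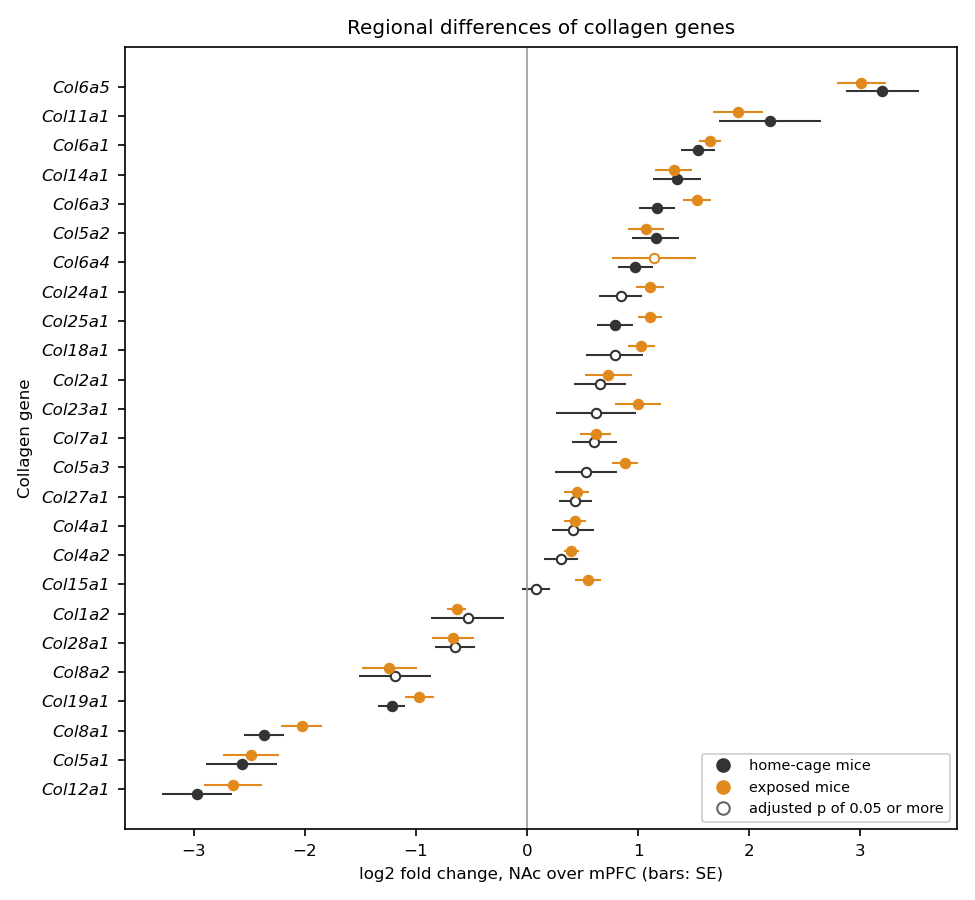
Log2 fold change of NAc over mPFC, with standard errors, for the members called in either regional comparison, in home-cage mice (black) and exposed mice (orange), where open symbols did not pass the threshold. Col6a5, at 3.20 and 3.01, and Col12a1, at -2.97 and -2.65, mark the ends.

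Type VI collagen, the beaded filament that links cells to their surroundings, was the class most shifted toward NAc. Its 6 members summed to 164 to 207 CPM in NAc and 63.6 to 76.3 CPM in mPFC. In home-cage mice 4 of the 6 were called, all higher in NAc, where 7.01% of all genes were called higher. In exposed mice 3 of the 6 were called, also higher, against 19.2% of genes. Col6a1 measured 151 and 134 CPM after cocaine, 177 and 135 CPM in home-cage NAc, 48.1 and 43.3 CPM after defeat, and 52.8 and 54.3 CPM in home-cage mPFC. Every NAc library lay far above every mPFC library. The fold change was 2.90 in home-cage mice (log2 1.54, SE 0.156, edgeR adjusted p = 0.00783) and 3.14 in exposed mice (log2 1.65, SE 0.0985, edgeR adjusted p = 0.000785).

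Col6a5, one of the long chains that can take the place of the alpha 3 chain, had the largest ratio between regions of any member. It stood at 2.30 and 2.97 CPM after cocaine and 2.37 and 3.78 CPM in home-cage NAc, against 0.366 and 0.294 CPM after defeat and 0.280 and 0.387 CPM in home-cage mPFC. The groups were far apart at these low levels. The fold change was 9.20 in home-cage mice (log2 3.20, SE 0.331, edgeR adjusted p = 0.00818) and 8.06 in exposed mice (SE of the log2 value 0.221, edgeR adjusted p = 0.00122).

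The alpha 3 chain itself, Col6a3, measured 6.62 and 6.31 CPM after cocaine, 5.57 and 4.75 CPM in home-cage NAc, 2.09 and 2.44 CPM after defeat, and 2.43 and 2.11 CPM in home-cage mPFC. All NAc values were above all mPFC values, with log2 fold changes of 1.17 (SE 0.164) and 1.53 (SE 0.123) and edgeR adjusted p-values of 0.0156 and 0.00147. Col6a4, a further long chain, was at 9.09 and 4.17 CPM after cocaine, 6.63 and 6.78 CPM in home-cage NAc, 3.48 and 2.62 CPM after defeat, and 3.04 and 3.74 CPM in home-cage mPFC. Here the cocaine libraries were spread widely, and only the home-cage difference, log2 0.98 (SE 0.156, edgeR adjusted p = 0.0214), passed. Col6a2, the partner chain of Col6a1 in the filament, was not called in either comparison, at log2 0.17 and 0.02, with 14.3 to 18.5 CPM in NAc and 14.2 to 15.9 CPM in mPFC. Col6a6 was also not called, at 0.18 and 0.41.

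Among fibrillar collagens, which polymerise into striated fibrils, members went both ways and the sum of the 11 did not separate the regions, at 68.7 to 78.8 CPM in NAc and 70.0 to 84.9 CPM in mPFC. Col5a1, a chain of the type V collagen that starts fibrils and limits their width, measured 3.38 and 5.89 CPM after cocaine and 3.48 and 6.59 CPM in home-cage NAc. In mPFC it was at 25.2 and 27.4 CPM after defeat and 27.0 and 32.4 CPM in the home cage. The lowest mPFC library was several times the highest NAc library, and NAc was 5.94-fold lower in home-cage mice (log2 -2.57, SE 0.320, edgeR adjusted p = 0.0122) and 5.61-fold lower in exposed mice (log2 -2.49, SE 0.252, edgeR adjusted p = 0.00251).

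Its partner chain Col5a2 ran the other way. It was at 6.17 and 7.92 CPM after cocaine and 6.25 and 8.78 CPM in home-cage NAc, against 3.11 and 3.64 CPM after defeat and 3.63 and 3.05 CPM in home-cage mPFC. Regions did not overlap, with log2 fold changes of 1.16 (SE 0.211, edgeR adjusted p = 0.0293) and 1.07 (SE 0.159, edgeR adjusted p = 0.00644). The third chain, Col5a3, passed in exposed mice alone, at log2 0.88 (SE 0.119, edgeR adjusted p = 0.00513), and had 0.53 (SE 0.281) in home-cage mice.

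Col11a1, a chain of the cartilage collagen type XI that resembles type V, was higher in NAc, with 15.7 and 9.90 CPM after cocaine, 24 and 9.08 CPM in home-cage NAc, 3.40 and 3.54 CPM after defeat, and 3.67 and 3.55 CPM in home-cage mPFC. All mPFC values fell in a narrow band below every NAc value, while the NAc libraries differed widely by number. The log2 fold change in home-cage mice was 2.19 (SE 0.458, edgeR adjusted p = 0.0406), and it was 1.32 without NAc home-cage 1 and 2.72 without NAc home-cage 2. In exposed mice it was 1.90 (SE 0.228, edgeR adjusted p = 0.00381). Col11a2, a second type XI chain, had 0.04 and 0.28 and was not called.

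The minor fibrillar chain Col24a1 was at 7.05 and 6.12 CPM after cocaine, 5.48 and 7.29 CPM in home-cage NAc, 2.91 and 3.25 CPM after defeat, and 3.26 and 3.82 CPM in home-cage mPFC. It was higher in NAc in exposed mice, at log2 1.11 (SE 0.125, edgeR adjusted p = 0.00328), and just missed the threshold in home-cage mice, at 0.84 (SE 0.193, edgeR adjusted p = 0.0502). Col2a1, the main cartilage fibril chain, and Col27a1 also passed in exposed mice alone, at 0.73 and 0.45.

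The chains of the common connective tissue fibrils were low in both regions. Col1a1 measured 3.28 and 3.27 CPM after cocaine, 3.21 and 3.95 CPM in home-cage NAc, 3.84 and 5.85 CPM after defeat, and 3.88 and 5 CPM in home-cage mPFC. Col1a2, which joins it in type I collagen, was at 7.05 and 7.47, 6.31 and 7.34, 11.2 and 11.6, and 6.60 and 13.1 CPM in the same groups. Col3a1, the type III chain of soft tissue, was at 0.911 and 0.805, 0.797 and 0.798, 0.975 and 1.34, and 0.877 and 1.18 CPM.

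Of these 3, Col1a2 alone was called, and in exposed mice alone, at log2 -0.63 (SE 0.0835, edgeR adjusted p = 0.00484). Its home-cage mPFC libraries stood far apart, and the home-cage difference of -0.54 (SE 0.328) was 0.04 without mPFC home-cage 2 and -0.96 without mPFC home-cage 1. The sum of meningeal fibroblast markers, of which 2 of 12 were at 0, was also lower in mPFC home-cage 1, at 106 CPM, than in mPFC home-cage 2, at 157 CPM. It was 143 and 190 CPM after defeat and 74.9 to 107 CPM in NAc. Ptgds made up most of it, at 76.6, 121, 107 and 147 CPM in these mPFC libraries. In the cocaine libraries the sum was 107 and 81.3 CPM, of which Ptgds was 82.0 and 55.2 CPM. Col1a2 was at 7.05 and 7.47 CPM there. The part of these cells in the Col1a2 values was not tested.

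The type IV chains of the basement membrane summed to 142 to 181 CPM in NAc and 117 to 139 CPM in mPFC. Col4a1 was at 58.8 and 69.9 CPM after cocaine, 53.5 and 75.5 CPM in home-cage NAc, 46.5 and 49.9 CPM after defeat, and 44.6 and 51.8 CPM in home-cage mPFC. Col4a2 was at 85.2 and 90.9, 81.9 and 97.9, 66.0 and 68.8, and 65.0 and 79.9 CPM. For both genes the lowest NAc library lay just above the highest mPFC library. The log2 fold changes in exposed mice were 0.43 for Col4a1 (SE 0.0987, edgeR adjusted p = 0.0226) and 0.40 for Col4a2 (SE 0.0696, edgeR adjusted p = 0.0103), while those in home-cage mice, 0.41 (SE 0.188) and 0.30 (SE 0.152), did not pass. The less common chains Col4a3 to Col4a6, which replace the first pair in kidney and other specialised membranes, were not called in either regional comparison and stood at 0.595 to 3.77 CPM.

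The 9 FACIT collagens summed to 71.0 to 93.3 CPM in NAc and 149 to 162 CPM in mPFC, and that gap lay in Col12a1 and Col19a1. Without these genes the sums were 44.4 to 53.9 CPM in NAc and 39.8 to 45.8 CPM in mPFC, and the median log2 fold change of the 9 was -0.04 in home-cage mice and 0.13 in exposed mice. Col12a1, which coats type I fibrils, measured 6.65 and 11.9 CPM after cocaine and 5.69 and 10.8 CPM in home-cage NAc. In mPFC it was at 57.5 and 60.2 CPM after defeat and 65.5 and 62.9 CPM in the home cage. The regions were far apart, and NAc was 7.82-fold lower in home-cage mice (log2 -2.97, SE 0.314, edgeR adjusted p = 0.00862) and 6.29-fold lower in exposed mice (log2 -2.65, SE 0.263, edgeR adjusted p = 0.00239).

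Col19a1 was at 24.4 and 31.0 CPM after cocaine and 20.9 and 25.2 CPM in home-cage NAc, and at 51.3 and 58.0 CPM after defeat and 53.3 and 53.4 CPM in home-cage mPFC. Again no NAc library reached the lowest mPFC library, with log2 fold changes of -1.22 (SE 0.12, edgeR adjusted p = 0.00735) and -0.97 (SE 0.129, edgeR adjusted p = 0.00494).

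Unlike these, Col14a1, a FACIT collagen of fibril surfaces, was higher in NAc. It measured 8.45 and 6.39 CPM after cocaine, 9.20 and 6.22 CPM in home-cage NAc, 2.79 and 3.20 CPM after defeat, and 3.01 and 3 CPM in home-cage mPFC. All NAc libraries were above all mPFC libraries, at log2 1.35 (SE 0.216, edgeR adjusted p = 0.0214) and 1.32 (SE 0.168, edgeR adjusted p = 0.00439). The other 6 FACIT members, Col9a1, Col9a2, Col9a3, Col16a1, Col20a1 and Col22a1, were not called in either regional comparison, with log2 fold changes between -0.55 and 0.30.

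The short-chain network collagen Col8a1, known from vessel walls and the cornea, was lower in NAc. It was at 0.868 and 1.15 CPM after cocaine, 0.734 and 0.863 CPM in home-cage NAc, 3.83 and 4.48 CPM after defeat, and 3.94 and 4.26 CPM in home-cage mPFC. The mPFC values were tightly grouped above all NAc values, and NAc was 5.17-fold lower in home-cage mice (log2 -2.37, SE 0.177, edgeR adjusted p = 0.00433) and 4.08-fold lower in exposed mice (log2 -2.03, SE 0.183, edgeR adjusted p = 0.0019).

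Its partner Col8a2, the lowest member in CPM, was at 0.244 and 0.203, 0.192 and 0.290, 0.564 and 0.502, and 0.486 and 0.602 CPM in the same order of groups. It lay lower in every NAc library and passed in exposed mice, at -1.24 (SE 0.245, edgeR adjusted p = 0.0148), but not in home-cage mice, at -1.19 (SE 0.321, edgeR adjusted p = 0.0725). Col7a1, the anchoring fibril of skin, was higher in NAc in exposed mice alone, at 0.62.

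Membrane collagens were led by Col25a1, a neuronal collagen whose shed ectodomain is found in amyloid plaques. It measured 124 and 102 CPM after cocaine, 112 and 83.2 CPM in home-cage NAc, 53.1 and 52.1 CPM after defeat, and 54.2 and 57.9 CPM in home-cage mPFC. NAc values were spread but all above mPFC, at log2 0.79 (SE 0.161, edgeR adjusted p = 0.0384) and 1.11 (SE 0.107, edgeR adjusted p = 0.00221). Col23a1 passed in exposed mice alone, at 1.0 (SE 0.204, edgeR adjusted p = 0.0159). Col13a1, a collagen of the neuromuscular junction, and Col17a1, a collagen of hemidesmosomes, were not called.

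The multiplexins Col15a1 and Col18a1, basement membrane proteoglycans of which Col18a1 is the source of endostatin, passed in exposed mice alone, at 0.55 and 1.03. Col28a1, which in mouse is made near peripheral nerve glia, was lower there at -0.67, and Col26a1 was not called.

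Col6a1 and Col25a1, both higher in NAc, were large parts of total collagen. The 43 members summed to 651 to 664 CPM in NAc and 506 to 567 CPM in mPFC. Without those genes the ranges were 362 to 434 and 405 to 455 CPM, which overlap. Col6a1, Col25a1, Col4a2 and Col4a1 together took 60.0% to 65.2% of collagen CPM in NAc and 40.9% to 43.0% in mPFC.

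Because several collagens are built from fixed partners, the ratio between chains of one type was compared per kilobase of exons, over 12 pairs picked with the values known, with home-cage and exposed libraries pooled within each region. Col5a1 over Col5a2 was 0.619, 0.841, 0.629 and 0.848 in the NAc libraries and 9.15, 8.49, 8.40 and 12 in the mPFC libraries, so the more abundant chain differed by region. Col6a1 over Col6a2 was 13.9 to 23.3 in NAc and 5.75 to 7.06 in mPFC, and Col11a1 over Col11a2 was 0.483 to 1.09 and 0.185 to 0.203. Col8a1 over Col8a2, at 1.70 to 3.24 and 3.90 to 5.12, and Col6a2 over Col6a3, at 3.11 to 5.59 and 8.36 to 10.9, also did not overlap.

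The ratios of the other 7 pairs overlapped between the regions. Col4a1 over Col4a2 was 0.579 to 0.684 in NAc and 0.575 to 0.643 in mPFC, Col4a5 over Col4a6 was 1.60 to 1.98 and 1.68 to 1.82, and Col4a3 over Col4a4 was 0.529 to 0.820 and 0.767 to 1.03. Wider ranges were found for Col1a1 over Col1a2, at 0.828 to 1.02 and 0.650 to 1.11, for Col9a1 over Col9a2, at 0.0717 to 0.171 and 0.123 to 0.223, and for Col6a1 over Col6a3, at 57.8 to 87.0 and 48.4 to 70.2. Col9a2 over Col9a3 was 0.527 to 0.790 and 0.724 to 0.845. The 5 pairs without overlap reached the smallest p that an exact two-sided permutation test of 4 against 4 libraries can give, 0.0286, which is 0.0686 after Benjamini-Hochberg adjustment over the 12 pairs, so no pair passed. For Col4a1 over Col4a2 the adjusted p of the same exact test was 0.515.

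**Figure D3:**
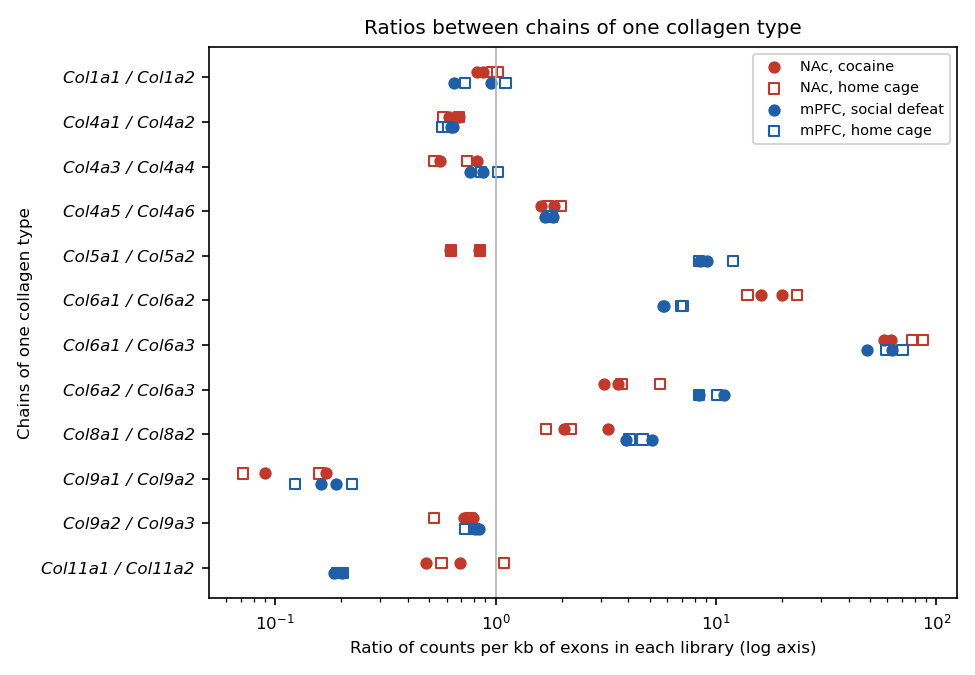
Ratio of counts per kilobase of exons between chains of one collagen type (log axis) in each of the 8 libraries, with NAc in red and mPFC in blue. Col5a1 over Col5a2 lies below 1 in the 4 NAc libraries and between 8.40 and 12 in the 4 mPFC libraries.

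Within NAc, collagen genes differed between libraries numbered 1 and those numbered 2, a contrast of titles whose meaning the labels do not give. With the group in the fit, 15 of 43 (34.9%) were called, 6 higher and 9 lower in number 1, against 18.8% of 18418 genes (9.67% higher and 9.16% lower). The count fell without either NAc home-cage library, and the shares of all genes in those fits are not given here. Striatal marker sums moved with the number, as given above, and oligodendrocyte markers, 8 of 8 detected, were at 2560 and 2400 CPM in number 1 and 2270 and 1370 CPM in number 2. Their part in the collagen values was not tested.

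Col11a1 was 1.59 times as high in cocaine 1 as in cocaine 2 and 2.65 times as high in home-cage 1 as in home-cage 2, a log2 difference of 1.04 (SE 0.132, edgeR adjusted p = 3.83e-05). Col17a1, at 3.88 and 3.5 CPM in number 1 and 2.50 and 2.31 CPM in number 2, followed at 0.62 (SE 0.134, edgeR adjusted p = 0.00381), and Col14a1 at 0.49 (SE 0.105, edgeR adjusted p = 0.00368). Both numbered 1 libraries lay above both numbered 2 libraries for each of these genes, as for 5282 of 18418 genes tested. Col25a1, Col11a2 and Col6a1 were also higher in number 1, by log2 0.29 to 0.35.

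Lower in number 1 was Col9a1, a cartilage FACIT chain, with 0.416 and 0.271 CPM against 0.812 and 0.732 CPM (log2 -1.19, SE 0.241, edgeR adjusted p = 0.00238). Col22a1, a FACIT collagen of tissue junctions, had 2.27 and 2.41 CPM against 5.05 and 4.83 CPM (log2 -1.07, SE 0.131, edgeR adjusted p = 2.7e-05). The membrane collagen Col23a1 had 24.1 and 15.3 CPM against 35.9 and 33.6 CPM (log2 -0.85, SE 0.108, edgeR adjusted p = 4.04e-05). In all of these the numbers did not overlap, and 5574 of 18418 genes tested were likewise lower in both numbered 1 libraries.

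Col12a1 (log2 -0.88, SE 0.100) and Col5a1 (log2 -0.86, SE 0.12) were lower in number 1 as well, with edgeR adjusted p-values of 1.39e-05 and 9.56e-05. They were also the members furthest below mPFC: the mPFC mean was 9.96 times the number 1 mean and 5.41 times the number 2 mean for Col12a1, and 8.15 and 4.48 times for Col5a1. Both regional differences were thus present, with different sizes, for either number. Col6a5, Col5a2, Col4a1 and Col19a1 were lower in number 1 by log2 values between -0.52 and -0.30.

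Libraries numbered 2 were not uniformly closer to mPFC. Of the 15 called members 11 had the number 2 mean nearer the mPFC mean and 4 (Col4a1, Col5a2, Col6a5 and Col23a1) had the number 1 mean nearer. Over all 43 members the number 2 mean was nearer for 26. The same shares over all genes are not given here, so these counts do not single out collagen genes.

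**Figure D4:**
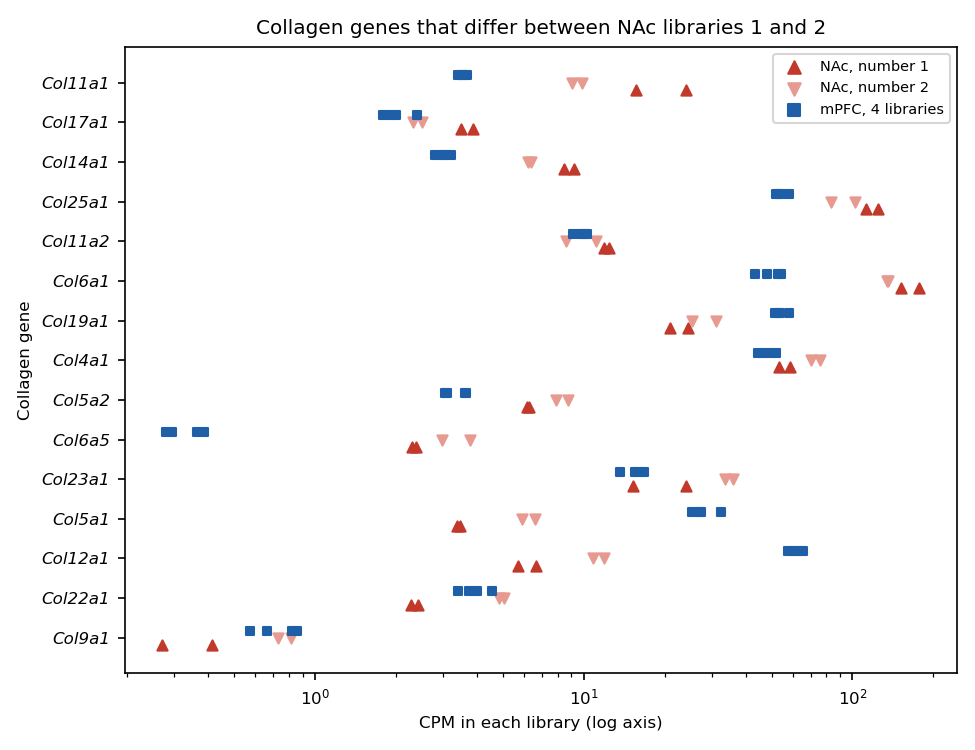
CPM (log axis) of the 15 collagen genes called between NAc libraries numbered 1 (dark triangles) and 2 (light triangles), with the 4 mPFC libraries as blue squares. Col12a1 and Col5a1 in number 2 lie between number 1 and mPFC, whereas Col6a5 and Col23a1 in number 2 lie on the far side from mPFC.

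No collagen gene was called after cocaine. edgeR called 0 of 43 members and 0.0% of 18418 genes (0 genes), and at an unadjusted p under 0.05 there were 0 members and 211 genes. DESeq2 called 0 members and 4 genes. Log2 fold changes of the members lay between -0.36 and 0.43, with 28 positive and a median of 0.07, against -0.007 over all genes. For 9 members each cocaine value exceeded each home-cage value (11.2% of all genes did so), and for 1, Col28a1, each was lower (13.2% of genes).

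The 5 members with the smallest p were higher after cocaine without passing. Col15a1 had 7.70 and 8.22 CPM after cocaine and 6.21 and 6.91 CPM in the home cage, a log2 difference of 0.29 (SE 0.115). Col6a3 had 0.33 (SE 0.133). Neither gene had a home-cage value as high as a cocaine value.

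Col4a3 had 0.761 and 1.01 CPM against 0.723 and 0.595 CPM (0.43, SE 0.248), and its head-to-head neighbour Col4a4 had 1.45 and 1.31 CPM against 1.03 and 1.20 CPM (0.32, SE 0.183). Col19a1, with overlapping groups, had 0.27 (SE 0.163). All edgeR adjusted p-values of these 5 were 1.0. Col1a1, Col1a2, Col3a1, Col4a1 and Col4a2 had log2 differences of -0.12, 0.10, 0.11, 0.00 and -0.02.

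After social defeat edgeR again called 0 of 43 members, where 0.704% of 18027 genes were called, 0.549% higher and 0.155% lower. DESeq2 called 0 members as well. At an unadjusted p under 0.05 there were 3 members and 1288 genes (7.14%). Members leaned lower, with 31 negative and 12 positive and a median of -0.07, against -0.003 over all genes. For 13 members each defeat value was under each home-cage value (15.8% of genes), and for 3 each was over (18.3% of genes).

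Col6a1 came nearest to the threshold, with 48.1 and 43.3 CPM after defeat against 52.8 and 54.3 CPM in the home cage, a log2 difference of -0.24 (SE 0.0784, edgeR adjusted p = 0.222). The groups did not overlap. Col22a1, at 3.42 and 3.76 CPM against 4.58 and 4.02 CPM, had -0.27 (SE 0.12, edgeR adjusted p = 0.585), also without overlap. Col26a1 had -0.19 and Col4a5 had 0.22.

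Calls after defeat changed with single mPFC home-cage libraries. Col5a1, at -0.18 (SE 0.0846, edgeR adjusted p = 0.629), was -0.31 and called without mPFC home-cage 1 (edgeR adjusted p = 0.0285). Col1a2, at 0.21 (SE 0.130, edgeR adjusted p = 0.862), was 0.78 and called without mPFC home-cage 2 (edgeR adjusted p = 1.62e-09) and -0.21 without mPFC home-cage 1. The home-cage libraries stood at 6.60 and 13.1 CPM for Col1a2 on either side of the defeat libraries at 11.2 and 11.6 CPM. Blood markers, 1 of 5 of them at 0, summed to 58.4 and 53.4 CPM after defeat and 19.5 and 19.6 CPM in the home cage, and their part in these values was not tested. Col1a1 and Col3a1 had 0.12 and 0.17, and Col4a1 and Col4a2 had -0.01 and -0.11.

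The difference between the responses to cocaine and to defeat, tested as an interaction over the 8 libraries, gave 0 of 43 members and 0.0% of 18783 genes by edgeR, with 2 members and 415 genes at an unadjusted p under 0.05. DESeq2 called 0 members and 2 genes. Col15a1 had 0.29 after cocaine and -0.18 after defeat, a difference of 0.47 (SE 0.163, edgeR adjusted p = 1.0). Col4a3 had 0.43 and -0.31, a difference of 0.74 (SE 0.283, edgeR adjusted p = 1.0). Col6a3, Col4a4 and Col26a1 had differences of 0.35, 0.44 and 0.26, with the same adjusted p.

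**Figure D5:**
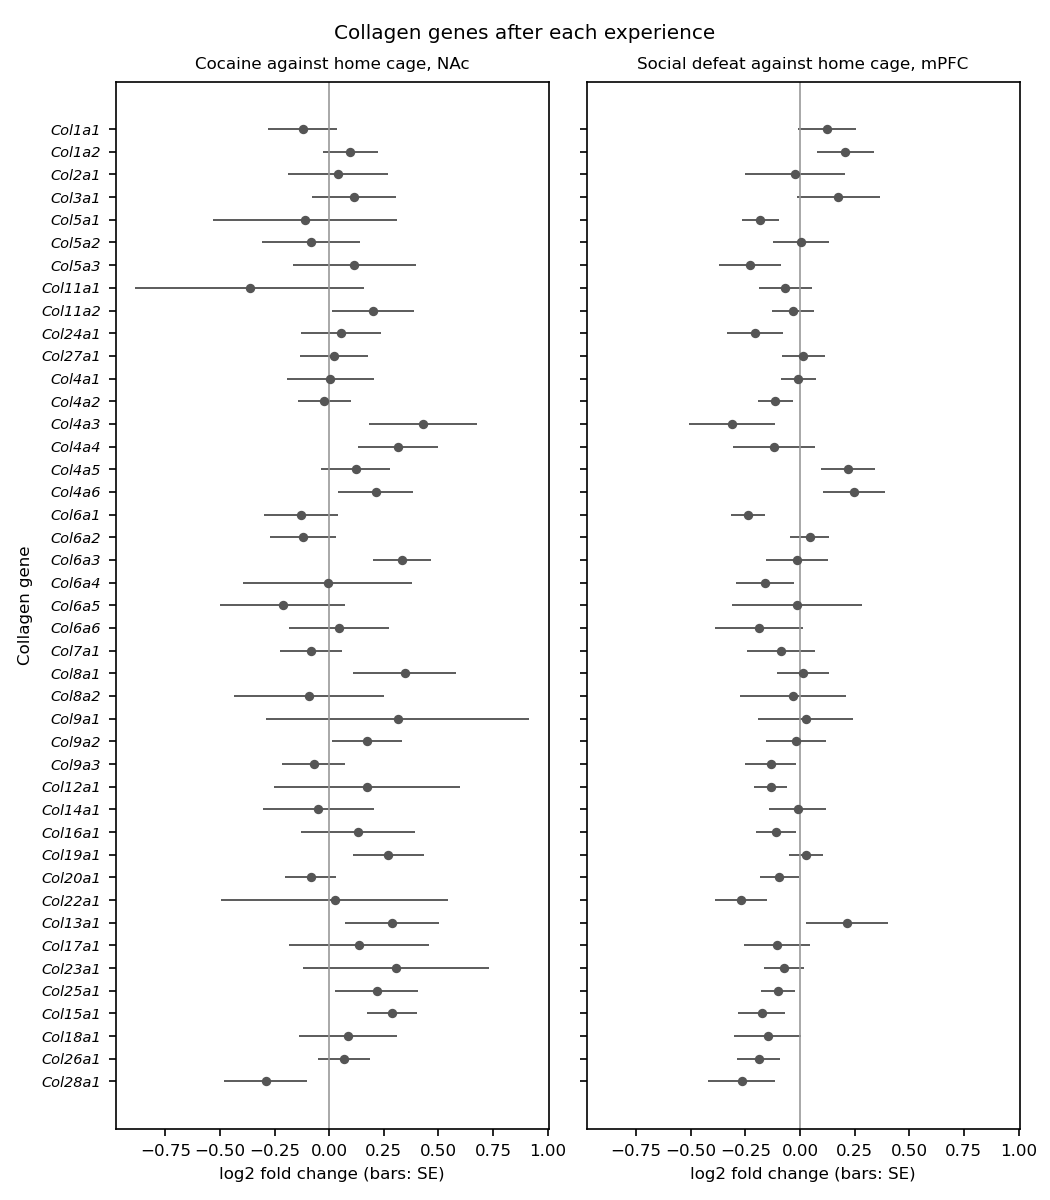
Log2 fold change with standard error of each of the 43 collagen genes after cocaine in NAc (left) and after social defeat in mPFC (right), each against home cage. All values lie between -0.36 and 0.43, and no gene passed the threshold in either comparison.

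The genes that make, cut, bind and degrade collagen were followed as 6 lists. After cocaine 0 members of any list passed. After defeat P4ha1, a catalytic subunit of the prolyl hydroxylase that stabilises the helix, rose from 66.2 and 63.5 CPM to 80.0 and 81.9 CPM (log2 0.31, SE 0.0758, edgeR adjusted p = 0.022), 1 of 22 modifying enzymes and chaperones. It was not called without defeat 1, defeat 2 or mPFC home-cage 2 (edgeR adjusted p = 0.273, 0.665 and 0.0801), nor with all 8 libraries in the fit (edgeR adjusted p = 1.0). Fmod, a collagen-binding proteoglycan that is also on the meningeal fibroblast list, was 1 of 6 proteoglycans to rise, from 2.35 and 3.51 CPM to 3.92 and 5.37 CPM, by 0.67 (SE 0.138, edgeR adjusted p = 0.0024). DESeq2 gave it an adjusted p of 0.126. Its edgeR adjusted p was 1.0 with all 8 libraries in the fit, 0.152 without mPFC home-cage 1 and 0.763 without defeat 2. Of the 6 proteoglycans 5 had positive values, with a median of 0.23, and so did all 10 meningeal fibroblast markers tested, with a median of 0.22 and 1 called. The part of meningeal tissue in these values was not tested. The remaining 4 lists had 0 calls after defeat.

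Between regions in home-cage mice, 3 of 13 genes for procollagen processing and crosslinking were higher and 2 lower in NAc. Tll1, a procollagen C-proteinase of the tolloid family, was at 11.1 to 16.4 CPM in NAc and 3.33 to 4.41 CPM in mPFC (log2 1.92, SE 0.18, edgeR adjusted p = 0.00686), while its relative Tll2 had -1.64 (SE 0.227, edgeR adjusted p = 0.0153). Of 9 collagen receptors, the integrin chain Itga11 was higher at 0.92 and the kinase receptor Ddr2 lower at -0.78. Of 22 modifying enzymes P3h3 was higher at 0.69, and of 8 collagenases and inhibitors the membrane protease Mmp14 was higher at 0.71. Among 17 basement membrane partners the laminin chain Lama4 was lower at -0.72 and Lamc1 higher at 0.41, and among 6 proteoglycans Kera was higher at 3.16 and Prelp lower at -0.67. Each of these calls passed at an edgeR adjusted p under 0.05, as did 12.4% of all genes, and each was lost without either mPFC home-cage library, as no gene was called then.

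In exposed mice, where 36.3% of all genes were called, the counts higher and lower in NAc were 4 and 2 of 13 processing genes, 2 and 0 of 9 receptors, 5 and 2 of 22 modifying enzymes, 2 and 0 of 8 collagenases and inhibitors, 7 and 2 of 17 basement membrane partners, and 1 and 2 of 6 proteoglycans. Adamts3, which trims the N-terminal propeptide of fibrillar procollagens, measured 261 and 147 CPM after cocaine and 37.0 and 38.1 CPM after defeat (log2 2.46, SE 0.272, edgeR adjusted p = 0.00312). In the home cage it was at 294 and 141 CPM in NAc and 37.2 and 39.6 CPM in mPFC, so that number 1 stood above number 2 in both NAc groups (log2 0.95, SE 0.0871). Tll1 and Itga11 were again higher, at 1.58 and 1.08, and P4ha1 was lower, at -0.48.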

How the data were processed

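The authors deposited raw read counts per gene symbol, 1 table per region. Per the submitters' processing notes, reads were aligned to mm10 with STAR 2.7.1a and counted with featureCounts. For strand, introns, multiple alignments and the annotation, the settings were not given in the sources used here, so reads of overlapping genes could not be separated. Gene lengths and coordinates came from GENCODE release M21 (GRCm38). Counts were tested with edgeR 4.0.16 in R 4.3.3 (filterByExpr, TMM, quasi-likelihood test, Benjamini-Hochberg adjustment over all genes tested, threshold 0.05), fitting only the libraries compared. The number comparison had group in the fit, and the interaction used all 8 libraries. The scripts were tested on simulated data. DESeq2 1.42.0, RLE scaling, no filter, a fit of all libraries, a replicate block and leaving out each library were alternatives. The collagen family, its membership rule and the lists were chosen with earlier results of these data known. Named with values were the 10 members of largest change in a comparison with more than 10 calls, the 5 of smallest p where none was called, Col1a1, Col1a2, Col3a1, Col4a1 and Col4a2, and up to 2 genes per pathway list. Col8a2, Col24a1, Col25a1 and further members were added after their values were seen.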

Additional observations from a re-analysis of the deposited data

How the results depend on the processing

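With 2 libraries per group, single libraries moved the counts most. Leaving out 1 library gave 0 to 1 members after defeat, 0 to 27 between regions in home-cage mice, 8 to 32 between regions in exposed mice and 8 to 19 between NAc numbers. The 12 home-cage calls were all among the 26 and 27 calls made without a NAc library. A lone library is assumed there to vary like the other groups, and the cause of these shifts was not tested. Shares of all genes in the same fits are not given beside these counts, so the shifts cannot be read as particular to collagen genes. Of the single-gene values refitted this way (called genes, the 5 of smallest p where none was called, the 5 always named in the regional comparisons, and Col1a2 and Col5a1 after defeat), those to change sign were of Col1a2, which ran from -0.21 to 0.78 after defeat (without mPFC home-cage 1 and 2) and from -0.96 to 0.04 between home-cage regions (without mPFC home-cage 1 and 2). Between regions in home-cage mice RLE scaling gave 12 members, no filter 15, DESeq2 16 and a fit of all libraries 17, and in exposed mice 24, 23, 26 and 21 in the same order. Between numbers they gave 17, 19, 10 and 15. All left cocaine, defeat and the interaction at 0, where they were run. Over all genes, DESeq2 called 3622 against 2262 between regions in home-cage mice and 2223 against 3469 between numbers. The fit of all libraries called 4654 between regions in home-cage mice and 5 against 127 after defeat. Of the 10 highest members per exon kilobase, 6 were among the 10 highest per span kilobase.

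The replicate block kept 0 members for cocaine (38 genes of all against 0) and for the interaction (3 genes against 0), and gave 13 members between regions in home-cage mice, 11 of them shared, with Col25a1 at an edgeR adjusted p of 0.0514. Deviations of same-numbered libraries correlated at 0.571 between the NAc groups and 0.0685 between the home-cage groups over 18802 genes. The labels do not say what a number shares, so the pairing was not used. In mPFC the numbers are only names, so the block between home-cage regions joined libraries by name alone. Its counts are therefore no check of the regional calls.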

Other observations

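Several collagen genes are genomic neighbours. Col5a2 and Col3a1, 24.6 kb apart on chromosome 1, had log2 regional values in home-cage mice of 1.16 and -0.37. Col9a1 and Col19a1, 9.2 kb apart on the same chromosome, had -0.55 and -1.22. Col4a4 and Col4a3, whose starts face away from each other 71 bases apart, had 0.32 and 0.43 after cocaine and -0.12 and -0.31 after defeat, none of them past the threshold. Col6a2 and Col6a1, 85.2 kb apart on chromosome 10, had 0.17 and 1.54. On chromosome 9 Col6a6, Col6a5 and Col6a4 had 0.18, 3.20 and 0.98, with gaps of 27.9 and 28.8 kb. Coordinates are those of GENCODE on GRCm38.

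Annotated exons of other genes overlap 12 members, by 563 bases of C430014B12Rik on the opposite strand at Col4a3, 234 bases of Tcfl5 at Col9a3 and 289 bases in 2 genes at Col6a4, and by at most 212 bases elsewhere. Without stated strand counting, reads of these stretches cannot be assigned.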
